A study of Mus musculus with 30 samples.

Results

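Condensin and the SMC5/6 complex are the relatives of cohesin among the ring-shaped SMC complexes, and the 10 genes described here encode their core subunits: Smc2, Smc4, Ncapd2, Ncapg, Ncaph, Ncapd3, Ncapg2, Ncaph2, Smc5 and Smc6. They were chosen by name, as the rows of the deposited count table that map to these symbols. All 10 were found once each among the 55421 genes of the table, and all 10 were among the 19868 genes with enough counts to be tested. Their RNA was followed in mouse embryonic stem cells in which cofactors of cohesin had been degraded, across 30 libraries in 10 groups of 3.

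Each SMC complex is built on a pair of long coiled-coil ATPases joined by a kleisin subunit. SMC2 and SMC4 form the pair shared by both condensins. Condensin I adds NCAPD2, NCAPG and the kleisin NCAPH and reaches chromosomes in mitosis after the nuclear envelope breaks down, while condensin II adds NCAPD3, NCAPG2 and NCAPH2 and is nuclear throughout the cell cycle. SMC5 and SMC6 form the third complex, which binds DNA during replication and recombination and carries NSE subunits with SUMO and ubiquitin ligase activity. Embryonic stem cells divide rapidly and express many replication and mitosis genes strongly.

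The cells were E14, a male mouse embryonic stem cell line of 129 background, grown in serum medium with leukemia inhibitory factor and the inhibitors PD0325901 and CHIR-99021. All 5 lines carried Tir1, the plant F-box protein that marks proteins fused to an auxin-inducible degron (AID) for destruction once auxin is present. The TIR1 line had Tir1 alone and served as the control for auxin. The PDS5AB line carried PDS5A-AID and PDS5B-AID, and the WAPL line carried WAPL-AID. The PDS5AB-NIPBL line carried PDS5A-AID, PDS5B-AID, NIPBL-FKBP and RAD21-Halo, and the WAPL-NIPBL line WAPL-AID, NIPBL-FKBP and RAD21-Halo. FKBP is a degron answered by dTAG-13, NIPBL is the loading and extrusion factor of cohesin, PDS5A, PDS5B and WAPL bind cohesin and release it or restrain it, and Halo is a label on the cohesin kleisin RAD21. Each line was sampled untreated and after 24 h, with auxin at 500 µM in the TIR1, PDS5AB and WAPL lines and with auxin at 500 µM plus dTAG-13 at 500 nM in the other two. The TIR1 line was not sampled with dTAG-13, so an effect of that compound itself cannot be told apart from NIPBL loss. Every line bears a single cell line name in the labels, and the labels do not say whether replicates were separate cultures, so p-values measure the spread between these libraries. Protein levels were not analysed here, and RNA of a tagged gene does not check its depletion.

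Library totals ran from 19632704 to 45539021 counts. The defining stem cell markers were high in every library (Pou5f1 504 to 912 CPM), and the summed level of 8 stem cell markers was between 4170 and 7000 CPM, against at most 32.4 CPM for the marker lists of mesoderm, primitive endoderm, neural, trophoblast and fibroblast cells, with Mesp1, Elf5 and Col3a1 at 0 in 3, 4 and 8 libraries. CPM is the count per 1000000 counts of the library, after scaling for library composition by the trimmed mean of M-values (TMM). The library names form a number series, and the groups compared did not always share a stretch of it. PDS5AB and untreated TIR1 libraries have numbers 1 to 21, and the remaining 7 groups, auxin-treated TIR1 among them, have numbers 25 to 45.

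Promoter sequence is shown for 4 members, chosen after their values were seen to set unlike members side by side: Ncapg with the largest fall, Ncapg2 with a fall in both the PDS5AB and the WAPL line, Ncapd2 as the most abundant member, and Ncaph with the smallest change after PDS5A and PDS5B loss. Each line is the 250 bases before the RefSeq transcription start on GRCm38.p6, written 5′ to 3′ along the gene's strand, at chr5:45669675-45669924 (plus strand) for Ncapg, chr12:116405186-116405435 (plus) for Ncapg2, chr6:125191587-125191836 (minus) for Ncapd2 and chr2:127133955-127134204 (minus) for Ncaph. Capitals mark letters of 3 motifs searched on both strands: TTTGAA or TTCGAA, the core of the cell cycle homology region (CHR) of many mitotic genes; TTTCCCGC, TTTGGCGC, TTTCGCGC or TTTGCCGC, letters bound by E2F factors; and CCAAT.
Ncapg: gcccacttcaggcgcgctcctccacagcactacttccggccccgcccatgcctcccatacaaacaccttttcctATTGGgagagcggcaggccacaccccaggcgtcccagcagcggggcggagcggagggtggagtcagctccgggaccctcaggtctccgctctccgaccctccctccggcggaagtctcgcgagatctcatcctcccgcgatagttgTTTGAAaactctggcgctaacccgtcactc
Ncapg2: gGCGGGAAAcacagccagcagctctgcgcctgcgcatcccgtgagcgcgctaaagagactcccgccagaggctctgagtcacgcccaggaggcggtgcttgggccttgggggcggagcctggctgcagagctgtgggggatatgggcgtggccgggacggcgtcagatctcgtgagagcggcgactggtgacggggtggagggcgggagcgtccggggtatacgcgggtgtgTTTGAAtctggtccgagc
Ncapd2: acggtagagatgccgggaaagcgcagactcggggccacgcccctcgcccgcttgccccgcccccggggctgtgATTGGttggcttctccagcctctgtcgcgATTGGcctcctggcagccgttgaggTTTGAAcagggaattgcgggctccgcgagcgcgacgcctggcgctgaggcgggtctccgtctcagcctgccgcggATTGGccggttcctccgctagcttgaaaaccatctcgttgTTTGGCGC
Ncaph: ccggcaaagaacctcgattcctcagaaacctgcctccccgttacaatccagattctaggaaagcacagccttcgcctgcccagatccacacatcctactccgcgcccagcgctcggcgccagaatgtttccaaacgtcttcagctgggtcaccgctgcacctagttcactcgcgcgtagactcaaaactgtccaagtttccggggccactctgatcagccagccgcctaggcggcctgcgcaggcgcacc

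The CHR letters start 30 bases before the transcription start in Ncapg, 18 before it in Ncapg2 and 123 before it in Ncapd2, and the Ncaph window held no letters of any of the 3 motifs. Over the full RefSeq windows, which also take in the first 50 transcribed bases, CHR letters occurred in 7 of the 9 members with an entry (Smc2, Ncapd2, Ncapg, Ncapd3, Ncapg2, Ncaph2 and Smc6), against 19.2% of 32851 promoter windows of the same length. In Ncapd3 they lay in the window of an alternative start and not in that of its first start. E2F letters occurred in Ncapd2, Ncapg and Ncapg2, 3 of 9, against 2.26% of windows, and CCAAT in Smc2, Ncapd2 and Ncapg, 3 of 9, against 37.4%. Smc4 had no entry, and the Smc5 window lies inside the gene span of the deposited table. A match describes the letters only and is no evidence of binding.

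Levels between genes were compared as CPM per kilobase of the exon length in the deposited table. Averaged over all 30 libraries, Ncapd2 was the most abundant member at 70.9 CPM per kb, followed by Smc4 at 51.4, Ncaph2 at 44.9 and Smc2 at 40.9. Of the Ncaph2 exon length 19.7% is shared with genes on the opposite strand, where fragments were not assigned. Its place below Smc4 is therefore uncertain. Ncaph stood at 25.8, Ncapg at 16.8, Ncapd3 at 14.4 and Smc5 at 13.7, and Ncapg2 and Smc6 were lowest at 8. Every member was well counted, with at least 1428 counts in any library. Across the 10 group means the span was modest, from 1.32-fold for Ncaph2 to 1.82-fold for Ncapg and 1.83-fold for Smc6. In the order of group means, neighbouring groups mostly overlapped, but PDS5AB cells after auxin were the lowest group for 8 members. The exceptions were Smc5, lowest in auxin-treated WAPL cells, and Ncapd2, lowest in auxin-treated TIR1 cells.

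**Figure D1:**
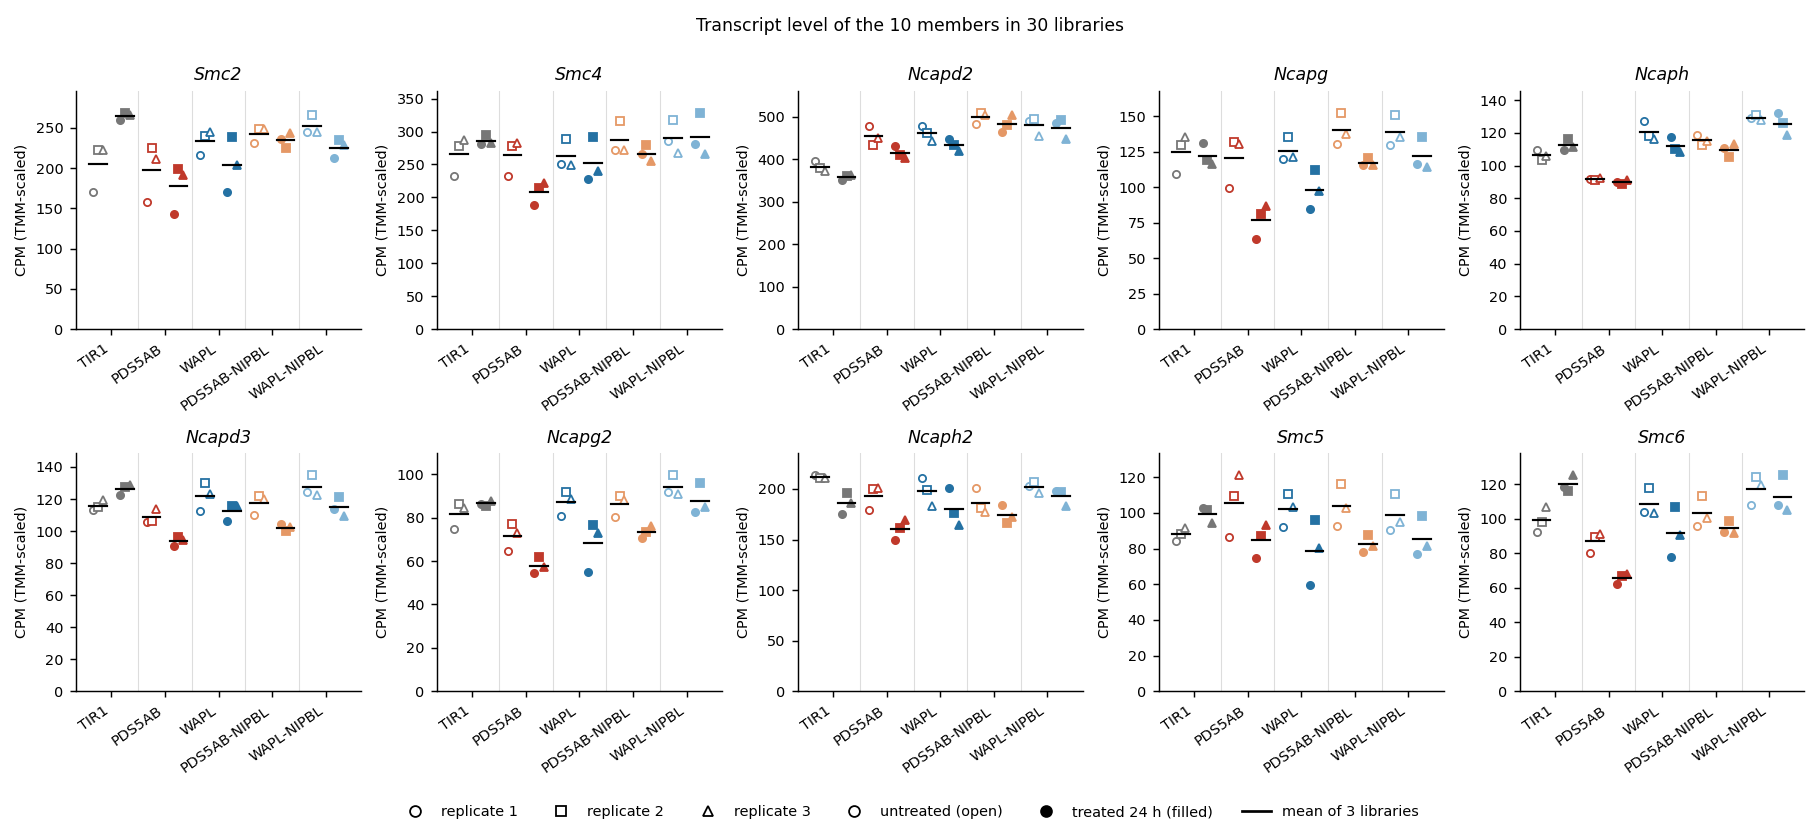
Level of each member in every library, as TMM-scaled CPM on a linear axis from 0, with untreated libraries as open and treated libraries as filled symbols, symbol shape giving the replicate and the bar the mean of 3. Ncapg and Smc6 stand lowest in auxin-treated PDS5AB cells, with group means of 77 and 65.7 CPM, and Ncapd2 is lower in both TIR1 groups than in any other group.

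Loss of PDS5A and PDS5B was followed by lower RNA of most members. After 24 h of auxin 7 of 10 members fell and none rose, in a comparison in which 46.0% of all tested genes were called and 20.2% were called lower. The threshold was an adjusted p of 0.05 in edgeR's quasi-likelihood F-test, with Benjamini-Hochberg adjustment over all 19868 genes, and genes past it are said to be called. Every adjusted p given here is of that kind unless another tool is named. The median log2 fold change of the 10 members was -0.29 beside 0.04 for all tested genes, and all 10 values were below 0. In 8 members every treated library lay below every untreated one, against 23.2% of all genes. The largest fall was that of Ncapg, a HEAT-repeat subunit of condensin I. It measured 99.2, 132 and 130.4 CPM in the untreated libraries and 63.4, 81.2 and 86.5 CPM after auxin. The groups were apart, and the log2 fold change was -0.64 (SE 0.112, adjusted p = 2.16e-05).

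Of the condensin ATPases, Smc4 fell. It went from 233, 278 and 283 CPM to 189, 215 and 222 CPM, a log2 fold change of -0.34 (SE 0.0987, adjusted p = 0.00485), with no overlap between the groups. Its partner Smc2 measured 158, 225 and 212 CPM before and 143, 199.5 and 191 CPM after auxin, groups that overlap widely, and its log2 fold change of -0.16 (SE 0.118, adjusted p = 0.295) was not called. Without untreated replicate 1 it was -0.30 and called (adjusted p = 0.0405). The difference between the Smc2 and Smc4 effects was not tested. The other condensin I subunits also missed the threshold. Ncapd2, its other HEAT-repeat subunit, had a log2 fold change of -0.13 (adjusted p = 0.0596) and was called lower by DESeq2 (adjusted p = 0.0379), which called 8 members (45.5% of all genes), and without auxin replicate 1 or untreated replicate 2 (adjusted p 0.0301 and 0.0373). Ncaph, its kleisin, had a log2 fold change of -0.03 (adjusted p = 0.673), with all 6 libraries between 88.5 and 92.1 CPM.

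All 3 condensin II subunits fell. Ncapg2 went from 64.7, 77.1 and 73.0 CPM to 54.5, 62 and 57.4 CPM, with a log2 fold change of -0.30 (SE 0.0917, adjusted p = 0.00713). Ncaph2, the condensin II kleisin, went from 179.6, 199.6 and 200.5 CPM to 149.9, 161 and 169 CPM, with a log2 fold change of -0.27 (SE 0.0714, adjusted p = 0.00237). Ncapd3 had the smallest change of the called members, from 106 to 114 CPM down to 90.7 to 96.3 CPM, with a log2 fold change of -0.21 (SE 0.0615, adjusted p = 0.0058). None of the 3 had overlapping groups.

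Both SMC5/6 ATPases fell as well. Smc6 measured 80.4, 89.5 and 91.3 CPM untreated and 62, 66.7 and 68.2 CPM after auxin, with a log2 fold change of -0.41 (SE 0.0914, adjusted p = 0.00051). Smc5 measured 86.8, 109.5 and 121 CPM untreated and 74.8, 86.8 and 93.5 CPM after auxin, with a log2 fold change of -0.32 (SE 0.128, adjusted p = 0.0427). Its groups overlap, and that call was lost when auxin replicate 1 or 2 or untreated replicate 2 or 3 was left out (adjusted p up to 0.225), as was that of Ncapg2 without untreated replicate 2 (adjusted p = 0.0507). With libraries of the same number treated as a pair, 9 members were called, all of them lower, against 56.6% of all genes called in either direction, the additions being Smc2 (adjusted p = 0.018) and Ncapd2 (adjusted p = 0.00272).

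The PDS5AB changes depended on how libraries were scaled. On unscaled library totals the median of all tested genes was higher by 0.155 in this comparison, and 3 members were called (47.6% of all genes), Ncapg and Smc6 lower and Ncaph higher, at 0.12 (adjusted p = 0.0346). The median of the 10 members was then -0.13, and Ncaph and Ncapd2 lay above 0. With both pairs and unscaled totals 6 members were called lower (Smc4, Ncapg, Ncapg2, Ncaph2, Smc5 and Smc6) and Ncaph higher, beside 57.8% of all genes. Ncapg and Smc6 were thus called lower in each of these fits, while the direction of Ncaph and Ncapd2 is relative to the bulk of expressed genes. The Smc2 change rounds to 0 on unscaled totals, without pairs (adjusted p = 0.998) and with them (adjusted p = 0.993).

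**Figure D2:**
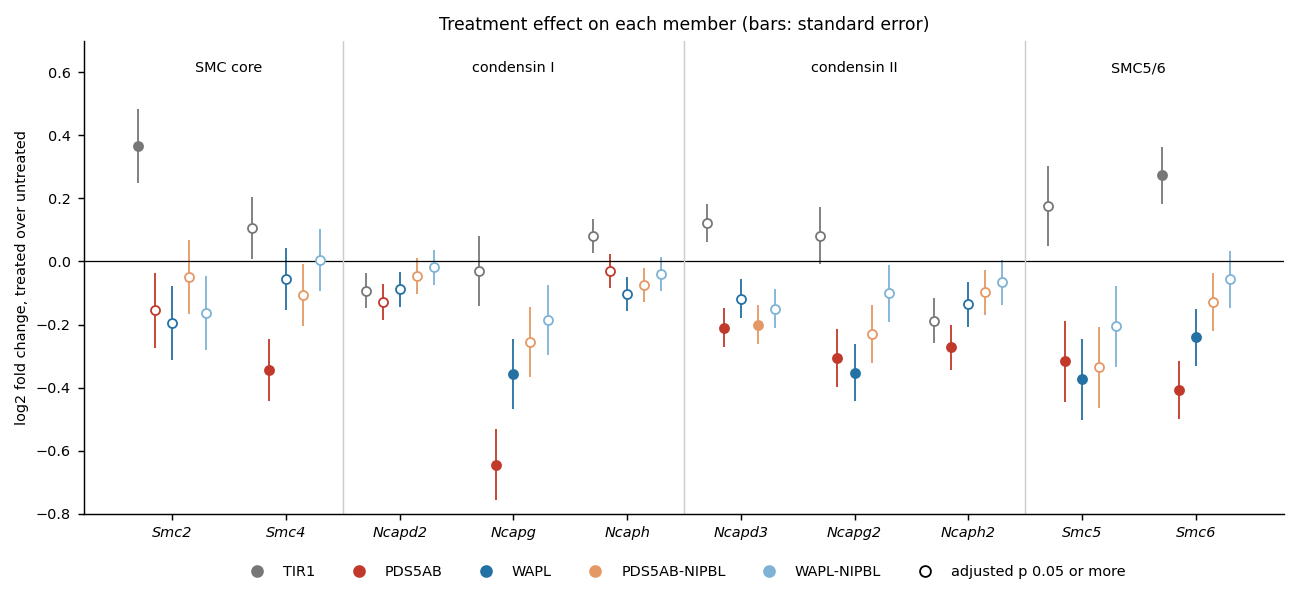
Log2 fold change of each member in each line, treated over untreated, with bars of 1 standard error and filled symbols at an adjusted p under 0.05. The 10 PDS5AB values run from -0.64 for Ncapg to -0.03 for Ncaph (0.12 on unscaled totals), and in TIR1 cells Smc2 and Smc6 lie above 0.

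After WAPL loss 4 members fell and none rose, against 32.8% of all genes called in either direction and 15.8% called lower. They were Ncapg, Ncapg2, Smc5 and Smc6, all of them also lower after PDS5A and PDS5B loss. The median over the 10 members was -0.17, beside 0.00 for all genes, and again no member lay above 0, or 1 of the 10 on unscaled totals. Ncapg went from 120.0, 135 and 122 CPM to 85, 112 and 97.4 CPM, a log2 fold change of -0.36 (SE 0.111, adjusted p = 0.0133). Ncapg2, its condensin II counterpart, went from 80.6, 92.1 and 88.6 CPM to 54.8, 76.6 and 73.0 CPM, a log2 fold change of -0.35 (SE 0.0912, adjusted p = 0.00317). Neither gene had overlapping groups.

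Smc5 measured 92.2, 110.6 and 103.6 CPM in untreated WAPL cells and 59.6, 96.2 and 80.3 CPM after auxin, with a log2 fold change of -0.37 (SE 0.128, adjusted p = 0.0241). Smc6 measured 104, 118 and 103 CPM and then 78.1, 107 and 90.3 CPM, with a log2 fold change of -0.24 (SE 0.0906, adjusted p = 0.0408). Both pairs of groups overlap, and in both genes auxin replicate 1 was the lowest library. Without that library none of the 4 calls was kept (log2 fold changes from -0.25 to -0.13, adjusted p from 0.0506 to 0.307) and Ncaph2 alone was called. Without untreated replicate 2 or auxin replicate 3 a single call was kept, on unscaled totals Ncapg2 alone was called (32.4% of all genes), and with the 2 WAPL groups fitted alone Ncapg alone. Without untreated replicate 3, Ncapg and Ncapg2 were called.

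Libraries of one number deviated together in the degron lines. Within the WAPL line every treated library was compared with the untreated library of its own number, and with TMM scaling 29 of the 30 ratios for the 10 members were below 1, the exception being Smc4 in pair 2, beside 50% of the ratios of all genes. On unscaled totals 24 of the 30 were below 1, beside 41.9%. In the fit with pairs 9 of 10 members were called lower in the WAPL line, against 23.0% of all genes. Smc5 reached a log2 fold change of -0.39 (SE 0.0565, adjusted p = 8.4e-07) and Smc2 one of -0.21 (SE 0.0548, adjusted p = 0.00256) there, and Smc4 was the member not called, at -0.06 (adjusted p = 0.277). With pairs and unscaled totals together the same 4 members were called lower as without either, Ncapg, Ncapg2, Smc5 and Smc6, beside 44.5% of all genes. In the PDS5AB line all 30 such ratios were below 1 with TMM scaling, beside 47.3% for all genes, and 23 on unscaled totals, beside 35.5%.

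Where NIPBL was depleted together with the other cofactors, fewer members passed the test. In PDS5AB-NIPBL cells 1 member fell, against 19.5% of all genes called and 8.06% called lower. This was Ncapd3, from 110.3, 122 and 120.3 CPM to 104, 99.8 and 102 CPM, with a log2 fold change of -0.20 (SE 0.0618, adjusted p = 0.0199) and no overlap between groups. The call was lost without untreated or treated replicate 2 or 3 (adjusted p up to 0.102) and on unscaled totals (adjusted p = 0.097). With no filter on low counts Ncapd3 was not called (adjusted p = 0.1), while Smc5 and Ncapg were. The member median was -0.12, and the larger values that were not called were those of Smc5 (-0.34, SE 0.129, adjusted p = 0.0655), Ncapg (-0.26, SE 0.111, adjusted p = 0.111) and Ncapg2 (-0.23, SE 0.0917, adjusted p = 0.0779). In the fit with pairs those 3 and Ncapd3 were called lower, 4 of 10 against 15.3% of all genes, with Smc5 at an adjusted p of 2.71e-05. The same 4 were called with pairs and unscaled totals (31.3% of all genes).

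In WAPL-NIPBL cells edgeR called 0 members, against 8.57% of all genes, and DESeq2 called 0 (10.3%). At an unadjusted p under 0.05 edgeR gave 1 member, against 21% of all genes. This was Ncapd3, which had the smallest adjusted p (0.137). The 10 values ran from -0.21 for Smc5 to 0.01 for Smc4 with a median of -0.08, and their 95% intervals reached from -0.473 to 0.212. In the fit with pairs Smc5 (-0.21, adjusted p = 0.0075), Ncapd3 (-0.15, adjusted p = 0.0101), Ncapg (-0.19, adjusted p = 0.0179) and Smc2 (-0.16, adjusted p = 0.0303) were called lower, 4 of 10 against 10.1% of all genes, and with pairs and unscaled totals Smc5 alone (adjusted p = 0.0487, 21.5% of all genes).

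**Figure D3:**
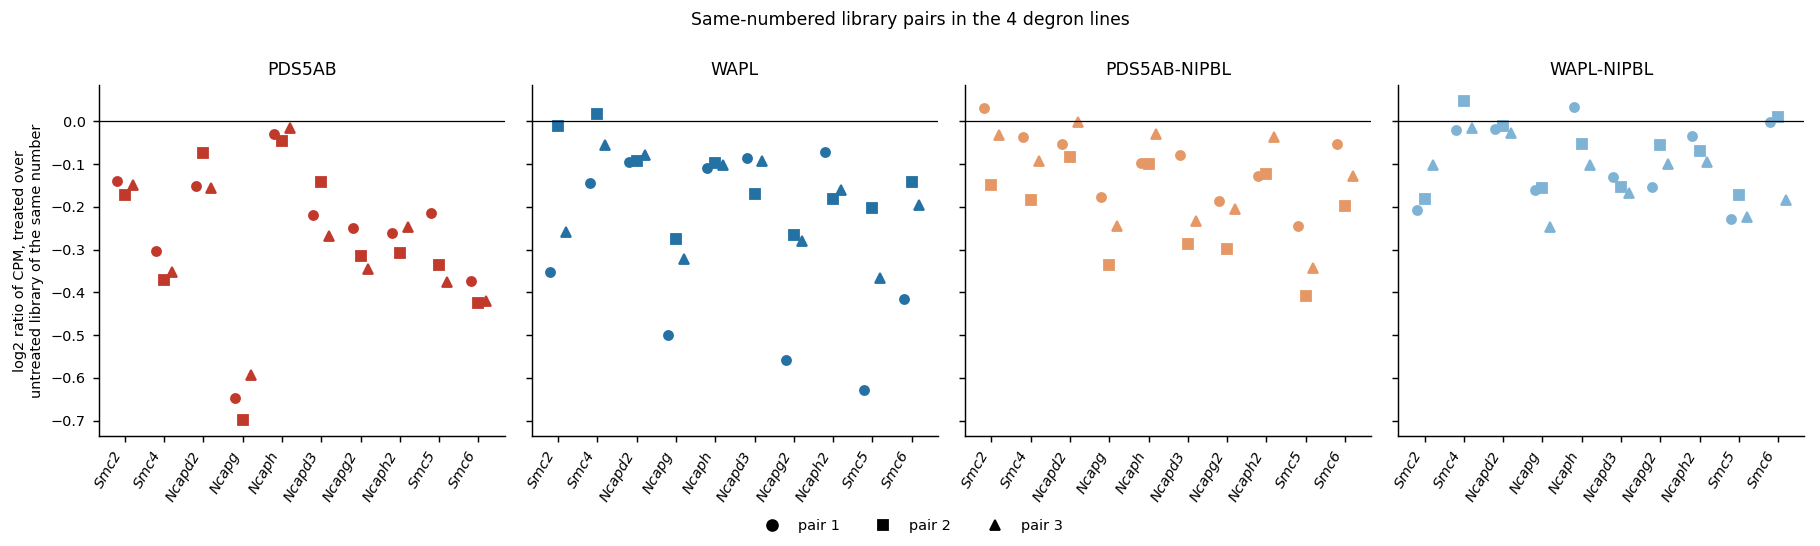
Log2 ratio of TMM-scaled CPM between the treated and the untreated library of the same number, for each member in the 4 degron lines, symbol shape giving the pair. All 30 ratios in the PDS5AB line lie below 0, 29 of 30 in the WAPL line, 29 of 30 in the PDS5AB-NIPBL line and 27 of 30 in the WAPL-NIPBL line (23, 24, 26 and 20 on unscaled totals). For all genes the shares are 47.3%, 50%, 49.4% and 49.3% in that order (35.5%, 41.9%, 44% and 41.8% on unscaled totals). Ratios of the same pair share their libraries and are not independent.

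Whether NIPBL loss changed the response was tested directly, as the combined-line effect minus the single-cofactor effect. Without pairs edgeR called 0 members for PDS5AB-NIPBL against PDS5AB (9.46% of all genes), and DESeq2 called 0 (11.9%). At an unadjusted p under 0.05 edgeR gave 2 members, Ncapg and Smc6, against 23.5% of all genes. For WAPL-NIPBL against WAPL edgeR also called 0 (5.19% of all genes), with 0 at an unadjusted p under 0.05 (17.1%), and DESeq2 called 0 (6.62%). With pairs, 4 members differed between the PDS5AB-NIPBL and PDS5AB effects, against 24.4% of all genes in either direction, each with a smaller fall in the combined line. The difference was 0.39 for Ncapg (SE 0.083, adjusted p = 0.000601), 0.28 for Smc6 (SE 0.0713, adjusted p = 0.00362), 0.24 for Smc4 (SE 0.0627, adjusted p = 0.00474) and 0.18 for Ncaph2 (SE 0.0567, adjusted p = 0.0218). For WAPL-NIPBL against WAPL the fit with pairs called 1 member, Ncapg2, higher at 0.26 (SE 0.0729, adjusted p = 0.0116), against 15.5% of all genes in either direction and 8.75% higher. On unscaled totals with pairs Ncapg (0.28, adjusted p = 0.0122) and Ncapg2 (0.23, adjusted p = 0.0342) were the members called in these comparisons, beside 25.5% and 15.0% of all genes. The median of all genes was lower by 0.109 in the PDS5AB-NIPBL comparison on unscaled totals. For Smc5 the PDS5AB-NIPBL difference was -0.02 (SE 0.0801, adjusted p = 0.885), its log2 fold change with pairs being -0.31 in the PDS5AB line and -0.33 in the PDS5AB-NIPBL line. The single and combined lines differ in cell line name, in the RAD21-Halo allele and in library numbers (PDS5AB) as well as in NIPBL, and these cannot be told apart.

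In the TIR1 line, where auxin has no degron to act on, 2 members rose and none fell, against 19.9% of all genes called and 10.4% called higher. Smc2 went from 171, 223 and 223 CPM to 259.8, 269 and 266 CPM, a log2 fold change of 0.37 (SE 0.118, adjusted p = 0.0267). Smc6 went from 92.4, 98.2 and 106.9 CPM to 118, 116 and 125 CPM, a log2 fold change of 0.27 (SE 0.0904, adjusted p = 0.0307). In both genes the treated libraries lay above all untreated ones. Ncaph2, at -0.19 (adjusted p = 0.0616), was called lower on unscaled totals (adjusted p = 0.0475) and with the TIR1 groups fitted alone (adjusted p = 0.0184). The untreated TIR1 libraries have numbers up to 21 and the treated ones numbers from 43, so auxin and library series cannot be told apart here. The Smc2 call was lost without untreated replicate 1 or auxin replicate 2 or 3 (adjusted p up to 0.136), and the Smc6 call without untreated replicate 1 or 2 or auxin replicate 3 (adjusted p up to 0.0993).

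Set against the TIR1 change, the degron-line changes were lower for several members. The PDS5AB effect lay below the TIR1 effect for 7 members (12.4% of all genes), the WAPL effect for 5 (10.9%), the PDS5AB-NIPBL effect for 2 (4.81%) and the WAPL-NIPBL effect for 1 (3.94%), and above it for none. For Smc6 the difference was -0.68 in the PDS5AB line (SE 0.129, adjusted p = 0.000208), -0.51 in the WAPL line (SE 0.128, adjusted p = 0.00399) and -0.40 in the PDS5AB-NIPBL line (SE 0.128, adjusted p = 0.0424). For Smc2 it was -0.52 in the PDS5AB line, -0.56 in the WAPL line and -0.53 in the WAPL-NIPBL line (adjusted p 0.0202, 0.0153 and 0.0493), its own log2 fold changes being -0.16, -0.19 and -0.16 there and 0.37 in TIR1 cells. These comparisons share the 6 TIR1 libraries and cross the library series. With pairs 7, 8, 7 and 4 members were called in the 4 lines in that order, all lower, beside 40.2%, 35.4%, 25.1% and 22.3% of all genes in either direction. Smc5 in the PDS5AB-NIPBL line, for example, went from an adjusted p of 0.0689 to 1.65e-05, at -0.51 in both fits. That fit also pairs the TIR1 libraries, whose numbers did not deviate together. Leaving out a library never ended the Smc6 calls in the PDS5AB and WAPL lines, while without untreated TIR1 replicate 1 all 3 Smc2 calls and the Smc6 call in the PDS5AB-NIPBL line were lost. On unscaled totals 2, 2, 1 and 0 members were called in the PDS5AB, WAPL, PDS5AB-NIPBL and WAPL-NIPBL lines, beside 26.6%, 20.4%, 9.99% and 6.90% of all genes. Ncaph2, which fell after PDS5A and PDS5B loss, differed from TIR1 by -0.08 (SE 0.101, adjusted p = 0.584). Its WAPL-NIPBL difference was 0.16 and called higher with pairs and unscaled totals together (adjusted p = 0.0359).

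Untreated lines differed from untreated TIR1 cells in a few members, most of all in Ncapd2. Ncapd2 measured 396, 379 and 371 CPM in untreated TIR1 cells, 433 to 479 CPM in PDS5AB, 444 to 479 CPM in WAPL, 483 to 509.5 CPM in PDS5AB-NIPBL and 456 to 495 CPM in WAPL-NIPBL cells. All untreated degron-line libraries lay above all untreated TIR1 libraries, with log2 differences of 0.25 (SE 0.0559, adjusted p = 0.000772), 0.27 (SE 0.0559, adjusted p = 0.00118), 0.39 (SE 0.056, adjusted p = 3.19e-06) and 0.33 (SE 0.056, adjusted p = 4.33e-05) in that order. These 4 calls held under every alternative run. The untreated PDS5AB libraries share the number series of untreated TIR1.

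Ncaph was the member with opposite baselines. It was lower than in TIR1 cells (103 to 109.6 CPM) in untreated PDS5AB cells (91.4 to 92.1 CPM, log2 difference -0.21, SE 0.0541, adjusted p = 0.00271), a call lost with no filter on low counts (adjusted p = 0.11). It was higher in untreated WAPL-NIPBL cells (128 to 131 CPM, 0.28, SE 0.054, adjusted p = 0.000226) and in WAPL cells (116 to 127 CPM, 0.18, SE 0.054, adjusted p = 0.0231), the last call being lost with no filter (adjusted p = 0.177) and without TIR1 replicate 2 or 3 or WAPL replicate 1 (adjusted p up to 0.11). Ncaph2 was lower in PDS5AB-NIPBL cells (-0.19, SE 0.0714, adjusted p = 0.0443) and Smc6 higher in WAPL-NIPBL cells (0.24, SE 0.0908, adjusted p = 0.0458). Both of these calls were lost in most fits that left out a library, 5 of 6 for Ncaph2 and 4 of 6 for Smc6, untreated TIR1 replicates 1 and 2 among them in both. The Smc6 call was also lost on unscaled totals (adjusted p = 0.062). In all, 1 member was higher and 1 lower in the PDS5AB baseline, beside 15.5% and 16.5% of all genes, and likewise in the PDS5AB-NIPBL baseline, beside 16.5% and 17.8%. Other lists differed in these baselines too. In untreated PDS5AB cells 10 of 15 S phase genes were lower and 1 higher than in TIR1 cells (median -0.24), 4 of 4 primitive endoderm markers were higher, and 4 of 8 stem cell markers were lower and 2 higher. In untreated PDS5AB-NIPBL cells 8 of the S phase genes were lower and 2 of the endoderm and 2 of the stem cell markers higher. In the WAPL baseline 2 members were higher (6.62% of genes) and in the WAPL-NIPBL baseline 3 (13.4%). Between the untreated WAPL-NIPBL and WAPL lines edgeR called 0 members (10.7% of genes), with 0 at an unadjusted p under 0.05 (22.1%), and DESeq2 called 0 (11.6%).

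Ratios of members within a library do not depend on how libraries are scaled. The condensin I subunits together were more abundant per kb than the condensin II subunits in all 30 libraries, with a mean log2 ratio from 0.49 (SD 0.0191) in untreated TIR1 cells to 0.95 (SD 0.0764) in treated PDS5AB-NIPBL cells. Both TIR1 groups lay below all other groups in this ratio. The HEAT subunits showed it most, Ncapd2 exceeding Ncapd3 by a log2 ratio of 1.84 to 2.57 in group means, while the kleisins ran the other way, Ncaph lying below Ncaph2 in every library (group means from -1.11 to -0.65). The Ncapg to Ncapg2 ratio was 1.11, 1.27 and 1.33 in untreated PDS5AB libraries and 0.71, 0.88 and 1.08 after auxin, groups that do not overlap, and in WAPL cells, where both genes fell, its mean was 1.02 before and after. The Smc5 to Smc6 ratio was highest in the PDS5AB line, with untreated libraries at 0.99, 1.17 and 1.29 and treated ones at 1.15, 1.26 and 1.34, while the other 24 libraries lay between 0.40 and 0.92. These ratios were not tested.

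**Figure D4:**
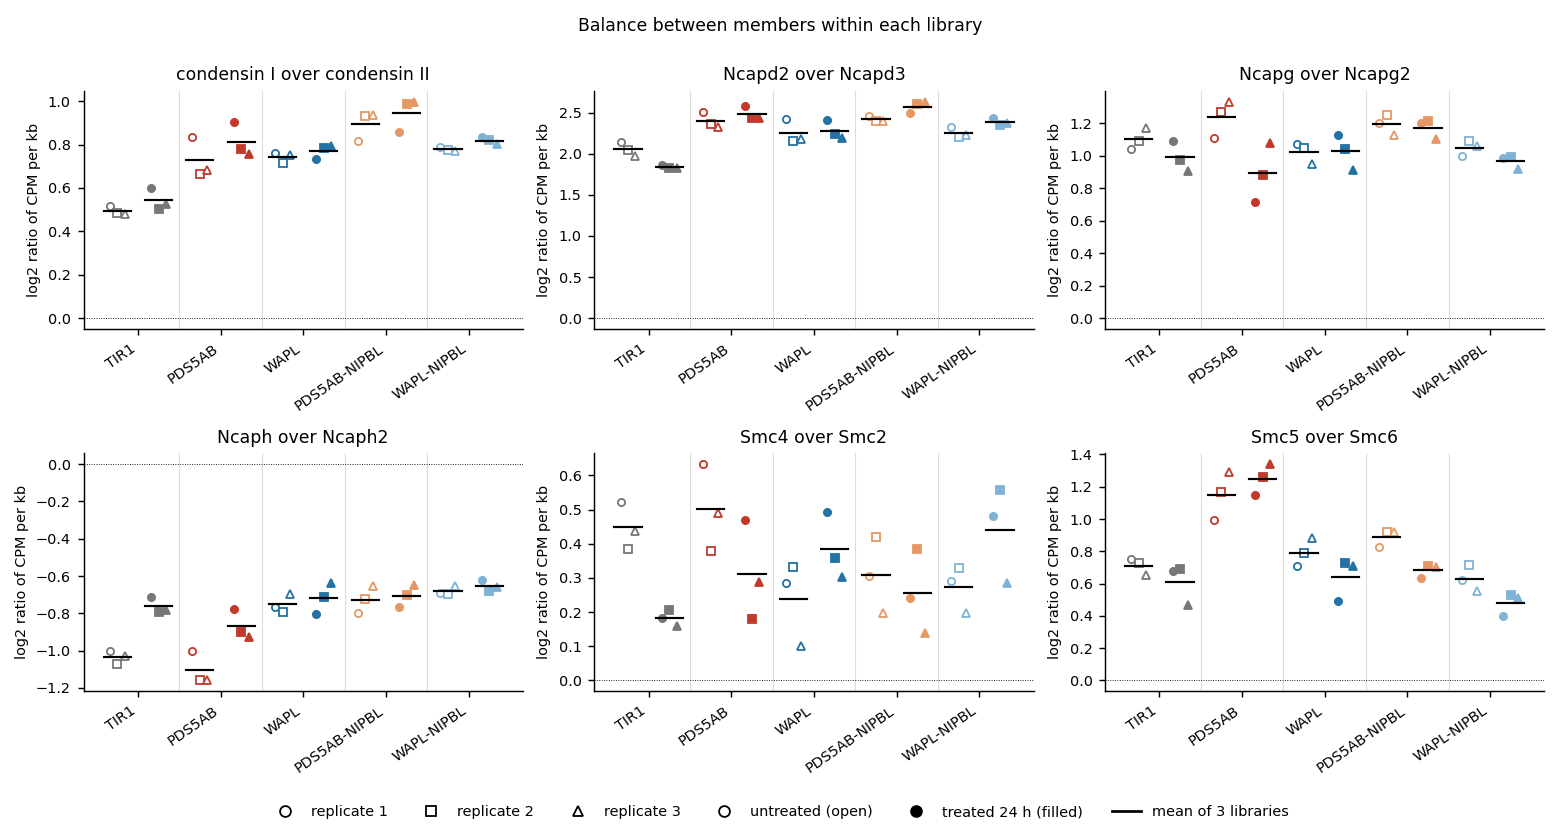
Log2 ratio of CPM per kb between members in every library, with symbols and bars as in the plot of levels. The dotted line marks equal levels; Ncaph stays below Ncaph2 throughout, and the Smc5 to Smc6 ratio stands above 0.99 only in the PDS5AB line.

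Some members deviated together between libraries of one group. Over the deviations of the 30 libraries from their group means, Ncapg correlated with Smc4 (r = 0.898), Smc5 (r = 0.886) and Smc2 (r = 0.874), and Smc5 with Smc6 (r = 0.879). Ncapd2, Ncaph and Ncaph2 stood apart from these genes. Ncaph correlated with Ncaph2 (r = 0.717) and Ncapd2 (r = 0.512) and negatively with Ncapg2 (r = -0.522), and Ncapd2 negatively with Smc2 (r = -0.496). Replicate 1 libraries supplied much of the low end of the correlated genes, for example 171, 158 and 170.0 CPM of Smc2 in untreated TIR1, untreated PDS5AB and treated WAPL cells. All these values come from the same libraries, so they describe the libraries and carry no p. The genes outside the 10 whose level over all 30 libraries was most like the mean of a subgroup were Casp8ap2 (r = 0.96) and Eif3a (r = 0.955) for Smc2 and Smc4, Pcnp (r = 0.944) and Nedd4 (r = 0.941) for condensin I, Mre11a (r = 0.963) and Tomm70a (r = 0.962) for condensin II, and Cwf19l2 (r = 0.933) and Srsf10 (r = 0.93) for Smc5 and Smc6.

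Among the other subunits and loaders of SMC5/6, 3 of 7 genes fell after PDS5A and PDS5B loss: Nsmce4a, the kleisin (log2 fold change -0.32, adjusted p = 0.000419), its partner Nsmce3 (-0.28, adjusted p = 0.0246) and the SUMO ligase Nsmce2 (-0.27, adjusted p = 0.00699). After WAPL loss 2 fell, Nsmce2 (-0.36, adjusted p = 0.000913) and the RING subunit Nsmce1 (-0.22, adjusted p = 0.0463), and 0 were called in the combined lines. In TIR1 cells 3 rose, the loaders Slf1 (0.44, adjusted p = 0.000372) and Slf2 (0.44, adjusted p = 0.000579) and Nsmce3 (0.31, adjusted p = 0.0252). These counts stand beside 20.2% and 15.8% of all genes called lower in the PDS5AB and WAPL lines and 10.4% called higher in TIR1 cells. On unscaled totals 1 of the 7 was called lower and 2 higher in the PDS5AB line and 1 lower in the WAPL line. With pairs 3 were called lower and 2 higher there, 4 lower in the WAPL line and 1 lower in the PDS5AB-NIPBL line.

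Of 10 partners and regulators of condensin, 6 fell and 1 rose in the PDS5AB line, with a median of -0.33. The mitotic kinase Plk1 had the largest fall, from a mean of 194.5 to 130.7 CPM (log2 fold change -0.57, adjusted p = 1.63e-05). In the WAPL line 2 of the 10 fell and 1 rose, or 1 and 2 on unscaled totals, and Mcph1, which restrains condensin II, was among those that fell (-0.21, adjusted p = 0.0257). Top2b, the form of topoisomerase II that persists in non-dividing cells, rose in the PDS5AB line (0.48, adjusted p = 5.5e-05), the WAPL line (0.32, adjusted p = 0.00587) and the PDS5AB-NIPBL line (0.26, adjusted p = 0.0408). In TIR1 cells Plk1 fell (-0.28, adjusted p = 0.0421), and it was the list's only call there. With pairs 4 of the 10 were lower and 2 higher in the WAPL line, 5 lower and 1 higher in the PDS5AB-NIPBL line and 1 lower in the WAPL-NIPBL line. On unscaled totals without pairs 5 were lower and 2 higher in the PDS5AB line. Of all genes 20.2% were called lower in the PDS5AB line and 15.8% in the WAPL line, and 19.9% in either direction in TIR1 cells. Without pairs the WAPL and TIR1 counts are thus near the background. With pairs 23.0%, 15.3% and 10.1% of all genes were lower in the WAPL, PDS5AB-NIPBL and WAPL-NIPBL lines. On unscaled totals 47.6% and 32.4% were called in either direction in the PDS5AB and WAPL lines.

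Genes of the mitotic program fell in the PDS5AB line as well. Of 15 G2/M genes 11 fell there, with a median of -0.32, the largest being the spindle gene Nusap1 (-0.41, adjusted p = 0.000257) and the cyclins Ccnb2 (-0.40, adjusted p = 1.98e-06) and Ccna2 (-0.37, adjusted p = 1.07e-06). In the WAPL line 3 fell, Ccnb2 (-0.31, adjusted p = 0.000111), Ccna2 (-0.29, adjusted p = 7.03e-05) and Ccnb1 (-0.16, adjusted p = 0.042), in TIR1 cells 2 fell, Aurka (-0.25, adjusted p = 0.0416) and Ccnb1 (-0.18, adjusted p = 0.0348), and in the combined lines 0 were called without pairs and 7 and 4 were called lower with pairs, as were 9 in the WAPL line. The summed level of the list was 3516 to 3814 CPM in untreated and 2988 to 3175 CPM in auxin-treated PDS5AB cells. On unscaled totals 6 of the 15 were called lower and 2 higher in that line, with a median of -0.17, and 2 lower in the WAPL line. Of all genes 20.2% were called lower in the PDS5AB line, 15.8% in the WAPL line, and 19.9% in either direction in TIR1 cells. Without pairs the WAPL and TIR1 counts of this list are thus near the background. With pairs the 9 of 15 in the WAPL line stand against 23.0% of all genes called lower. The 7 and 4 in the combined lines stand against 15.3% and 10.1%.

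For replication the count was larger. All 15 S phase genes were called lower in the PDS5AB line, 12 in the WAPL line, 9 in the PDS5AB-NIPBL line, 4 in the WAPL-NIPBL line and 6 in TIR1 cells, where 2 were called higher. Of all genes 20.2%, 15.8% and 8.06% were called lower in the PDS5AB, WAPL and PDS5AB-NIPBL lines. In either direction 8.57% were called in the WAPL-NIPBL line and 19.9% in TIR1 cells. On unscaled totals 12, 12, 7 and 2 were called lower in the PDS5AB, WAPL, PDS5AB-NIPBL and WAPL-NIPBL lines. Of all genes 47.6%, 32.4%, 19.5% and 9.9% were then called in either direction. With pairs 14 were lower in PDS5AB-NIPBL cells and 10 in WAPL-NIPBL cells, against 15.3% and 10.1% of all genes. The ribonucleotide reductase gene Rrm2 had the largest change in the PDS5AB line (-0.99, adjusted p = 3.31e-11) and in the WAPL line (-0.63, adjusted p = 1.95e-07), followed by the sliding clamp Pcna (-0.79, adjusted p = 6.25e-11) in the former and by Mcm4 (-0.52, adjusted p = 5.47e-07) in the latter. Cdc6 led in the PDS5AB-NIPBL line (-0.35, adjusted p = 0.012) and Mcm4 among the genes called in the WAPL-NIPBL line (-0.27, adjusted p = 0.00869). Set against the TIR1 change, 6, 5, 2 and 1 S phase genes were lower in the PDS5AB, WAPL, PDS5AB-NIPBL and WAPL-NIPBL lines, and 1 was higher in the last. Of the 15 G2/M genes 5, 1, 0 and 0 were lower, beside 12.4%, 10.9%, 4.81% and 3.94% of all genes. For the PDS5AB line the median difference from TIR1 was -0.27 for S phase and -0.17 for G2/M genes, beside -0.42 for the members. In bulk RNA, fewer cells in a cycle phase and less RNA per cell cannot be told apart.

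**Figure D5:**
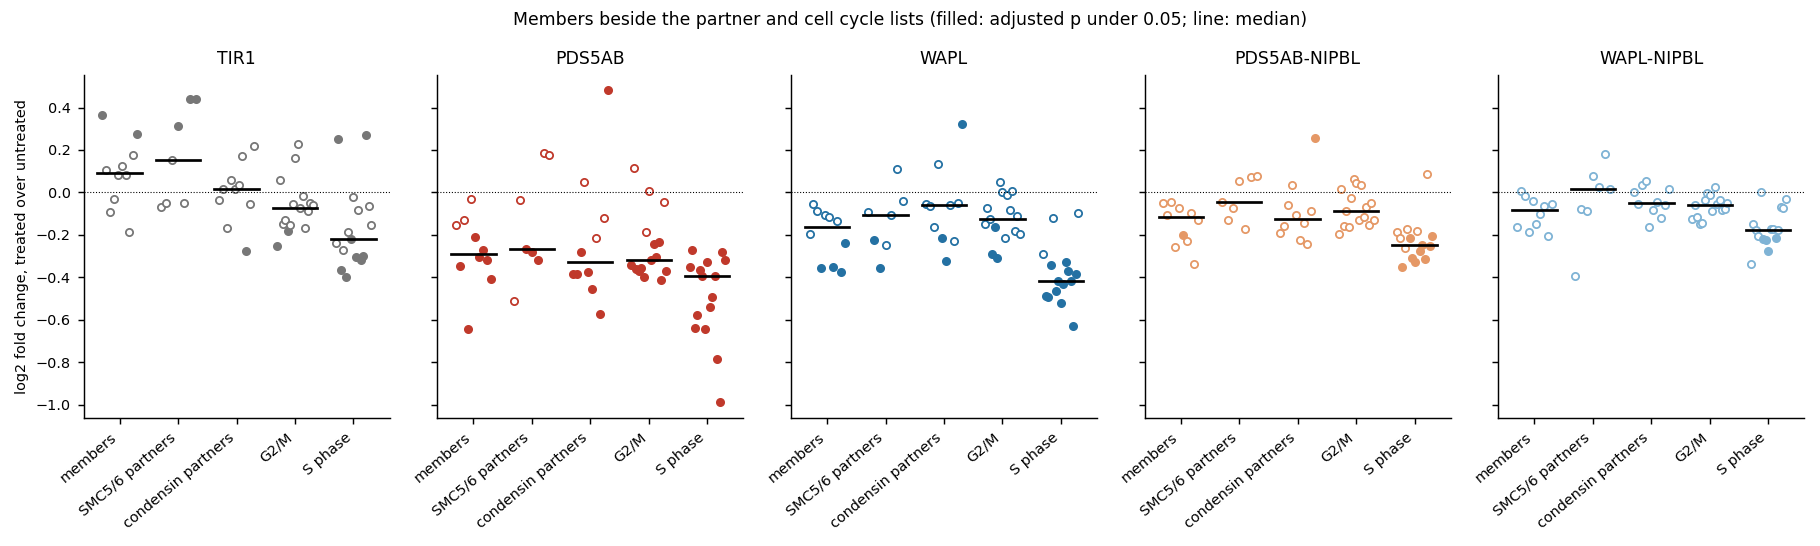
Log2 fold change of the 10 members and of the genes of 4 lists in each line, treated over untreated, with filled symbols at an adjusted p under 0.05 and lines at the median. S phase genes have the lowest medians in all 5 panels, and the members sit near the G2/M genes in the PDS5AB line, with medians of -0.29 and -0.32.

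Markers of cell state moved with the treatments as well, those of stem cells first. Their summed level was 6240 to 6990 CPM in untreated and 4170 to 4530 CPM in treated PDS5AB cells, where 8 of 8 markers were called lower (6 on unscaled totals). In the WAPL line it was 6260 to 6500 CPM untreated and 4940 to 5150 CPM after auxin, with 6 of 8 called lower. The combined lines also had 6 of 8 called lower (5 on unscaled totals), with sums of 6680 to 7000 and 5590 to 5940 CPM in the PDS5AB-NIPBL line and of 6360 to 6510 and 5330 to 5490 CPM in the WAPL-NIPBL line. In TIR1 cells the sum was 6320 to 6690 CPM untreated and 6190 to 6610 CPM after auxin, with 2 called lower and 2 higher. The primitive endoderm markers summed to at most 26.1 CPM in any library, the highest level being in treated PDS5AB cells (23.8 to 26.1 CPM, and 12.7 to 13.6 CPM untreated). Of these 4 markers 3 were called higher in the PDS5AB and in the WAPL line, 2 in each combined line and 1 in TIR1 cells. Their sum was 6.75 to 8.03 CPM untreated and 20.7 to 22.2 CPM treated in the PDS5AB-NIPBL line, 4.12 to 4.36 and 9.56 to 10.5 CPM in the WAPL-NIPBL line, and 3.92 to 4.23 and 6.87 to 8.24 CPM in the WAPL line. It was 3.08 to 4.59 and 5.88 to 8.06 CPM in TIR1 cells. Among the other lists, the 4 fibroblast markers summed to 13.5 to 14 CPM in untreated and 4.35 to 5.21 CPM in treated WAPL cells, where the 3 tested were called lower, while 2 of the 3 were called higher in the PDS5AB line (16.8 to 18.9 and 19.3 to 21.8 CPM). Of 4 mesoderm markers 2 were called higher in the WAPL line (9.56 to 12.4 and 15 to 18 CPM) and 1 higher and 1 lower in the PDS5AB line (19.5 to 31.2 and 17.2 to 19 CPM). The 3 trophoblast markers summed to 1.87 to 2.47 CPM in untreated and 9.18 to 11.6 CPM in treated TIR1 cells, with 1 of the 2 tested called higher. Of 3 neural markers 2 were called lower in TIR1 cells (9.15 to 12.5 and 6.56 to 7.66 CPM) and 2 higher and 1 lower in the WAPL line (11.2 to 12.1 and 7.86 to 10.3 CPM). Of all genes 46.0%, 32.8%, 19.5%, 8.57% and 19.9% were called in either direction in the PDS5AB, WAPL, PDS5AB-NIPBL, WAPL-NIPBL and TIR1 lines. On unscaled totals 47.6%, 19.5% and 9.9% were called in the PDS5AB, PDS5AB-NIPBL and WAPL-NIPBL lines. The 1 of 4 primitive endoderm markers called in TIR1 cells is near that line's share. The part of these marker shifts and of the cell cycle lists in the members' changes was not tested.

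Counting bears on 3 members. Fragments were counted without regard to strand, and those that touched 2 genes were not assigned. Ncapg (chr5:45669919-45700546) shares 944 exon bases, 13.4% of its exon length, with Lcorl on the opposite strand, and Lcorl itself was at 11.9 to 22.7 CPM and not called in the PDS5AB line (-0.32, adjusted p = 0.0906). Ncaph2 (chr15:89355719-89372826) shares 829 exon bases, 19.7%, with Sco2, and Ncapd2 (chr6:125168007-125191701) shares exon bases with the small RNA gene Scarna10 on its own strand. Counts of these genes therefore leave out part of their exons in every group, while their levels per kb, and ratios that use them, divide by the full exon length.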

How the data were processed

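RNA-seq was analysed from the deposited table of raw counts per gene for 30 libraries. The labels give the molecule as genomic DNA, but their titles and extraction protocol describe DNase-treated total RNA, and the counts were read as RNA. Per the file headers, the authors counted fragments with featureCounts 2.0.1 in paired-end mode with no strand option and without fragments that touched more than 1 gene, and the gene length column was deposited with the counts. The same headers name the GENCODE vM23 annotation, and the submitters' processing notes name STAR 2.7.7a and GRCm38.p6. Of the gene IDs, 99.5% matched a symbol.

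Counts were tested with edgeR 4.0.16 in R 4.3.3, with a mean per group (20 residual degrees of freedom), TMM factors (0.95 to 1.13) and genes kept by filterByExpr at a minimum count of 10. SEs are the log2 fold change over the root of F. The step was tested on simulated data. No pair of libraries was identical. Members and lists were chosen with earlier results of these data known. All 10 members are named in every comparison, and from each of the 4 lists up to 3 called genes with the largest change and a mean of at least 50 counts; likeness took the 2 genes of highest r. A gene that this rule names is not reported here.

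Libraries of the same replicate number deviated together in the 4 degron lines (r of 0.109 to 0.333 in every pair) and not in the TIR1 line (-0.0102 to 0.0574). The fit with pairs held a replicate block within every line, so it also paired the TIR1 libraries, whose numbers do not pair. Untreated WAPL and WAPL-NIPBL libraries also deviated together by number (0.109 to 0.227), and a block changed no call between them. Alternatives were RLE factors, DESeq2 1.42.0, no filter, the compared groups alone, replicate blocks, leaving out each library and, chosen after seeing the data, unscaled library totals with and without pairs. Promoter windows came from RefSeq. Figures were drawn with matplotlib 3.10.9.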

Additional observations from a re-analysis of the deposited data

Results flagged for a closer look

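Treatment effects that differed between a degron line and the TIR1 line were flagged in 15 cases, each by a test of the difference itself (edgeR's quasi-likelihood test, adjusted over all genes). For the PDS5AB line the differences in log2 fold change were -0.521 for Smc2, -0.45 for Smc4, -0.615 for Ncapg, -0.332 for Ncapd3, -0.387 for Ncapg2, -0.492 for Smc5 and -0.68 for Smc6, with adjusted p from 0.000208 to 0.0424. Those of Smc4, Ncapg, Ncapd3 and Smc6 kept their call in all 12 fits that left out a library, while those of Smc2, Ncapg2 and Smc5 were lost without untreated TIR1 replicate 1 or untreated PDS5AB replicate 2. For the WAPL line they were -0.56 for Smc2, -0.24 for Ncapd3, -0.435 for Ncapg2, -0.549 for Smc5 and -0.514 for Smc6, with adjusted p from 0.00399 to 0.0475. Here Smc6 kept its call in all 12 fits, and without untreated TIR1 replicate 1 or WAPL auxin replicate 1 the calls of the other 4 were lost. For the PDS5AB-NIPBL line the differences were -0.323 for Ncapd3 (adjusted p = 0.0152), kept in all 12 fits, and -0.402 for Smc6 (adjusted p = 0.0424), kept in 5 of 12 and lost without untreated TIR1 replicate 1 or 2 among others. For the WAPL-NIPBL line the difference was -0.53 for Smc2 (adjusted p = 0.0493), kept in 3 of 12 and lost without any of the 3 auxin-treated TIR1 libraries, among others.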

How the results depend on the processing

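Counts of called members depended on the fit, and their cause was not tested. The percentage beside a count is the share of all genes tested that were called in that fit. With RLE factors 2 members differed between the WAPL-NIPBL and TIR1 effects (7.13%), and with DESeq2 2 did so (9.0%) and 2 were called in the PDS5AB-NIPBL line (20.6%). On unscaled totals, chosen after seeing the data, 3 members were called in the PDS5AB line (47.6%), 1 in the WAPL line (32.4%), 0 in the PDS5AB-NIPBL line (19.5%), and 2 (26.6%), 2 (20.4%), 1 (9.99%) and 0 (6.90%) in the differences of the PDS5AB, WAPL, PDS5AB-NIPBL and WAPL-NIPBL effects from TIR1; Ncaph in the PDS5AB line went from -0.03 to 0.12. In the TIR1 line 3 were called on unscaled totals (20.2%), Ncaph2 lower among them. With no filter on low counts 2 members were called in the PDS5AB-NIPBL line (8.71%), 1 in the WAPL baseline (6.84%), 4 (5.40%) and 2 (4.15%) for the PDS5AB-NIPBL and WAPL-NIPBL differences from TIR1 and 1 between PDS5AB-NIPBL and PDS5AB effects (4.94%). With the compared groups alone 4 were called in the TIR1 line (28.9%), 1 in the WAPL line (27.5%), 4 in the PDS5AB-NIPBL line (19.9%), 1 in the WAPL baseline (14.6%), 5 in the WAPL-NIPBL baseline (32.1%), 5 in the PDS5AB-NIPBL difference from TIR1 (12.4%) and 4 in that of WAPL-NIPBL (11.9%).

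With a replicate block shared by all lines 4 members were called in the PDS5AB-NIPBL line (23.6%), 5 (35.7%), 4 (38.4%) and 5 (32.4%) in the PDS5AB, PDS5AB-NIPBL and WAPL-NIPBL baselines, 5 (14.3%) and 4 (10.9%) for the PDS5AB-NIPBL and WAPL-NIPBL differences from TIR1 and 1 between PDS5AB-NIPBL and PDS5AB effects (13.8%). Untreated PDS5AB and TIR1 libraries of one replicate number correlated at 0.148, 0.0709 and 0.207 and were not taken as pairs; this block added Ncapg2 (lower, adjusted p = 0.0201), Smc5 (higher, adjusted p = 0.024) and Smc6 (lower, adjusted p = 0.0313) to that baseline, where the range over all alternatives was 0.0201 to 0.372, 0.00409 to 0.444 and 0.0313 to 0.367. With the replicate block within each line 6 were called in the TIR1 line (35.6%), where numbers do not pair, with Ncaph2 and Ncapd2 lower, 9 in the WAPL line (45.1%), 4 in each combined line (32.1% and 20.9%), 8 (35.4%), 7 (25.1%) and 4 (22.3%) in the WAPL, PDS5AB-NIPBL and WAPL-NIPBL differences from TIR1, 4 between PDS5AB-NIPBL and PDS5AB effects (24.4%) and 1 between WAPL-NIPBL and WAPL effects (15.5%). With that replicate block and unscaled totals together the counts were 6 in the TIR1 line (35.6%), 4 after PDS5AB-NIPBL loss (31.3%) and 1 after WAPL-NIPBL loss (21.5%). In the differences from TIR1 they were 7 (40.7%), 6 (35%), 6 (24.7%) and 5 (22.6%) for the PDS5AB, WAPL, PDS5AB-NIPBL and WAPL-NIPBL effects. Ncaph2 was called higher in the last of these (0.16, adjusted p = 0.0359). Between combined and single effects 1 member was called for PDS5AB (25.5%) and 1 for WAPL (15.0%). Ncaph in the PDS5AB line was again at 0.12. The block within lines ended no call in the degron lines.

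Leaving out each library gave 0 to 2 called members in the TIR1 line, 6 to 8 in the PDS5AB line, 1 to 4 in the WAPL line, 0 to 2 in the PDS5AB-NIPBL line and 0 in the WAPL-NIPBL line. The baselines against TIR1 gave 2 to 3 in PDS5AB, 1 to 2 in WAPL, 1 to 2 in PDS5AB-NIPBL and 2 to 3 in WAPL-NIPBL cells. The differences from TIR1 gave 4 to 7, 1 to 6, 1 to 3 and 0 to 2 for the PDS5AB, WAPL, PDS5AB-NIPBL and WAPL-NIPBL effects, and PDS5AB-NIPBL against PDS5AB 0 to 1. Shares of all genes are not given for the fits that left out a library. A gained or lost call there cannot be set against that background. Of the 100 group means of the members, 81 moved by less than 1 SD on unscaled totals. The lowest count of a member in any library was 1428.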

Other observations

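RNA of the degraded cofactors was measured, though their proteins are what the degrons remove. Pds5a RNA fell in the PDS5AB line (log2 fold change -0.47, adjusted p = 0.000373) and in the WAPL line (-0.36, adjusted p = 0.00558), and in TIR1 cells Wapl (0.33, adjusted p = 0.0025) and Nipbl (0.36, adjusted p = 0.0127) rose after auxin. These changes come from edgeR's quasi-likelihood test. Before treatment some tagged genes were already lower than in TIR1 cells. The untreated mean of Pds5a was 224 CPM in TIR1, 83.4 CPM in PDS5AB and 99.5 CPM in PDS5AB-NIPBL cells. For Wapl it was 291 CPM in TIR1, 176 CPM in WAPL and 298 CPM in WAPL-NIPBL cells. For Nipbl it was 134 CPM in TIR1, 70 CPM in WAPL-NIPBL and 121 CPM in PDS5AB-NIPBL cells. Pds5b was not lower, at 110, 113 and 140 CPM in TIR1, PDS5AB and PDS5AB-NIPBL cells. No test of these means is given.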
